A study of Mus musculus with 40 samples.

Results

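GABA-A receptors are the ion channels that carry fast inhibition in the brain, and the genes described here encode 7 of their subunits: the α subunits Gabra2, Gabra3, Gabra4 and Gabra5, the β subunits Gabrb1 and Gabrb2, and the δ subunit Gabrd. All probe sets that the array annotation assigns to these genes alone were taken, each on its own, which gave 21 of the 45037 probe sets for 7 of the 18193 genes. Gabra2 and Gabrb2 have 5 probe sets each, Gabrb1 has 4, Gabra3, Gabra4 and Gabrd have 2 each, and Gabra5 has 1.

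A GABA-A receptor is a ring of 5 subunits around a chloride channel. Most synaptic receptors combine α, β and γ subunits, while δ-containing receptors, often built with α4, lie outside the synapse and carry tonic inhibition. The α5 subunit is known for its abundance in the hippocampus, where it also serves tonic inhibition. The α subunit sets much of a receptor's response to GABA and to benzodiazepines, and β subunits are needed for assembly and surface delivery.

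The study profiled Df(16)A/+ mice, a heterozygous chromosome 16 deletion strain that models the human 22q11.2 deletion, and their wild-type (WT) littermates. All animals were untreated males, 8 weeks old, on C57BL/6. The prefrontal cortex (PFC) and the hippocampus (HPC) were each profiled in 10 Df(16)A/+ and 10 WT samples, which the labels name biological replicates. Each of the 40 samples was hybridized to 1 Affymetrix Mouse430_2 array, which reads each gene with 1 or more probe sets, and its signals were deposited as log2 values after GCRMA, a background correction and normalization method. The deletion is carried in every cell, and the tissues are whole, so fewer cells of a type and less RNA per cell cannot be told apart.

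None of the 7 genes lies in the deleted interval. The 19 measured interval genes gave a check of the labels: 19 were lower in the PFC and 18 in the HPC, with median log2 differences of -1.23 and -1.06. Array medians ran from 3.67 to 3.88 in the PFC and from 3.55 to 3.94 in the HPC, while the 95th percentiles of 11.6 to 11.7 in the PFC and 10.9 to 11.1 in the HPC lay apart, so the regions were fitted apart and their levels are only set side by side. Hybridization runs (arrays whose recorded hybridization times lay within 10 minutes of the next) and chip lots were unevenly spread over the genotypes. In the PFC, run 3 held 1 Df(16)A/+ and 3 WT arrays, run 4 held 5 Df(16)A/+ and 7 WT arrays, and run 5 held 4 Df(16)A/+ arrays. In the HPC, run 2 held 2 Df(16)A/+ and 9 WT arrays, while run 3 held the other 8 Df(16)A/+ arrays and run 1 the last WT array. All 10 Df(16)A/+ arrays of the PFC came from chip lot 1, against 4 of the WT arrays, and the other 6 WT arrays from lot 2. In the HPC, lot 1 held 7 Df(16)A/+ and 9 WT arrays.

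The promoter windows of 3 members are given because Gabra2 and Gabra4 hold the α subunit rises described below, and because Gabra4 and Gabrb1 are neighbours with annotated starts 387 bases apart on opposite strands, so that the 5′ ends of the gene models overlap. Each window holds 250 bases before and 50 bases after an annotated start, 5′ to 3′ on the gene's strand, from RefSeq on GRCm38.p6. Capitals mark the GC box motif GGGCGG or its reverse complement CCGCCC.
Gabra2, chr5:71095800-71096099, minus strand: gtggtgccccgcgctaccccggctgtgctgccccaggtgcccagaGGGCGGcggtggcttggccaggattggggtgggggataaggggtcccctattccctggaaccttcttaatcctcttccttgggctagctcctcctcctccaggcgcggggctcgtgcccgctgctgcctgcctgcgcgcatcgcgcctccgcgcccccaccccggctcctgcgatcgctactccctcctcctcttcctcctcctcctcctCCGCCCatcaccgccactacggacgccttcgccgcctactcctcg
Gabra4, chr5:71658259-71658558, minus strand: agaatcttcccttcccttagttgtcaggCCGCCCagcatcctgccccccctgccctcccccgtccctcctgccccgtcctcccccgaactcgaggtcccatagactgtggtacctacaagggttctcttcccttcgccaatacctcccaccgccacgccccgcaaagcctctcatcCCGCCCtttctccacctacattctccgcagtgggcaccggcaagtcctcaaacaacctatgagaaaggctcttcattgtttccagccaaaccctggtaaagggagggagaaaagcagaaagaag
Gabrb1, chr5:71657671-71657970, plus strand: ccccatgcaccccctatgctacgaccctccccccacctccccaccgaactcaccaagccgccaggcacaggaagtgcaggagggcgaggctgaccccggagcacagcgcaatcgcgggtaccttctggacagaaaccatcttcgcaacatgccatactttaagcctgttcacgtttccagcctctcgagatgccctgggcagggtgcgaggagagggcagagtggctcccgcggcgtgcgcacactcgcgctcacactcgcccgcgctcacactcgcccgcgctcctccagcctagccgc

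The Gabra2 and Gabra4 windows hold 2 matches of this motif each, and the Gabrb1 window holds none. The motif occurs in 35.7% of all 32851 windows of the table. None of the 3 windows holds the cyclic AMP response element TGACGTCA (1.79% of all windows), its core TGACG or CGTCA (20.8%) or the TATA box TATAAA or its reverse complement TTTATA (13.6%). The CCAAT box CCAAT or ATTGG (37.4%) occurs once in the Gabra2 and once in the Gabra4 window and is absent from the Gabrb1 window. No overlaps between motifs were removed. The GC content is 70.0% in the Gabra2 window, 58.7% in the Gabra4 window and 66.0% in the Gabrb1 window, against a median of 52.7% over all windows. Windows were found for 6 of the 7 members, and none for Gabrd. Among the windows not shown, the GC box motif occurs once in a Gabrb2 window and is absent from those of Gabra3 and Gabra5. Gabra2 also neighbours Gabrg1, Gabra5 neighbours Gabrg3, Gabra3 neighbours Gabrq and Gabrb2 neighbours Gabra6.

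In the PFC of Df(16)A/+ mice, Gabrd was lower and 1 probe set each of Gabra2 and Gabra4 was higher, while Gabra3, Gabra5, Gabrb1 and Gabrb2 had no probe set that passed the test. The Df(16)A/+ signals were 85.9%, 128% and 108% of WT for these 3 probe sets. Differences are Df(16)A/+ minus WT in log2 units with the standard error (SE) of limma's fit, and a probe set was called at an adjusted p (Benjamini-Hochberg over all probe sets tested) under 0.05. Of the 18 member probe sets above the filter on low values (above 4 in at least 10 of the 20 arrays), 3 were called, against 18.5% of the 21653 probe sets tested (4000 calls). Of the 18, 2 were called higher, against 5.94% of all probe sets tested, and 1 was called lower, against 12.5%. At an unadjusted p under 0.05 there were 6 of the 18, 3 of them higher, against 33.1% of all probe sets tested and 11.3% for higher ones. Both member totals, called and unadjusted, were thus near the share over all probe sets tested. The median difference was -0.01 over the members and -0.02 over all probe sets tested. With quantile normalization, all calls split into 1684 higher and 2251 lower, against 1286 higher and 2714 lower on the deposited values.

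Gabrd, the δ subunit of extrasynaptic receptors, gave the smallest adjusted p of the members in the PFC. Its probe set 1449980_a_at had a lowest value of 10.15, a median of 10.42 and a highest of 10.55 in Df(16)A/+ PFC, against 10.50, 10.63 and 10.69 in WT PFC. All 10 Df(16)A/+ arrays lay under the WT mean and 7 lay under the lowest WT array, and 9 WT arrays lay above the highest Df(16)A/+ array, so the groups overlapped only at the edge. The log2 difference was -0.22 ± 0.05 SE (95% interval -0.32 to -0.12, adjusted p = 0.00359 by limma), which puts the Df(16)A/+ signal at 85.9% of WT. It was -0.23 (adjusted p = 0.016) with hybridization run as a block, -0.22 (0.047) with chip lot as a block and -0.28 (0.0427) within run 4. With run and lot together it was -0.20 (adjusted p = 0.221), and within lot 1 it was -0.22 (adjusted p = 0.105), past the threshold in neither fit. The other Gabrd probe set, 1457763_at, stayed between 2.00 and 2.14 in Df(16)A/+ PFC and between 2.01 and 2.07 in WT PFC and was not tested.

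Gabra2 encodes α2, an α subunit of synaptic receptors on pyramidal cells. Its probe set 1421738_at ran from 8.76 over a median of 9.42 to 9.58 in Df(16)A/+ PFC, against 8.65, 8.97 and 9.29 in WT PFC. Of the Df(16)A/+ arrays 9 lay above the WT mean and 7 above the highest WT array, and the groups overlapped through the 3 lowest Df(16)A/+ arrays. The difference was 0.35 ± 0.09 SE (95% interval 0.15 to 0.55, adjusted p = 0.0143 by limma), or 128% of WT. It was 0.35 (adjusted p = 0.0405) with run as a block, but 0.28 (0.191) with lot as a block, 0.43 (0.154) with both, 0.33 (0.157) within run 4 and 0.28 (0.253) within lot 1. The other tested Gabra2 probe sets had differences of 0.08 ± 0.07 SE (1443865_at) and -0.04 ± 0.06 SE (1455444_at), with adjusted p of 0.469 and 0.668, so the call rests on 1 of 3 probe sets. Probe sets 1420299_at and 1449807_x_at of Gabra2 did not exceed 3.18 on any array of either region and were not tested.

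Gabra4 encodes α4, the usual partner of δ in the forebrain. Probe set 1429330_at had 11.28, 11.36 and 11.48 as lowest, median and highest values in Df(16)A/+ PFC, against 11.16, 11.25 and 11.36 in WT PFC. All 10 Df(16)A/+ arrays lay above the WT mean, 5 lay above the highest WT array, and 8 WT arrays lay under the lowest Df(16)A/+ array. The difference was 0.11 ± 0.03 SE (95% interval 0.04 to 0.18, adjusted p = 0.0203 by limma), or 108% of WT. Centring each array on its median gave 0.09 (adjusted p = 0.104), run as a block 0.08 (0.155), lot as a block 0.12 (0.0928) and both blocks 0.07 (0.548), none of them past the threshold. The second Gabra4 probe set, 1433707_at, had a difference of -0.05 ± 0.03 SE (adjusted p = 0.337).

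**Figure D1:**
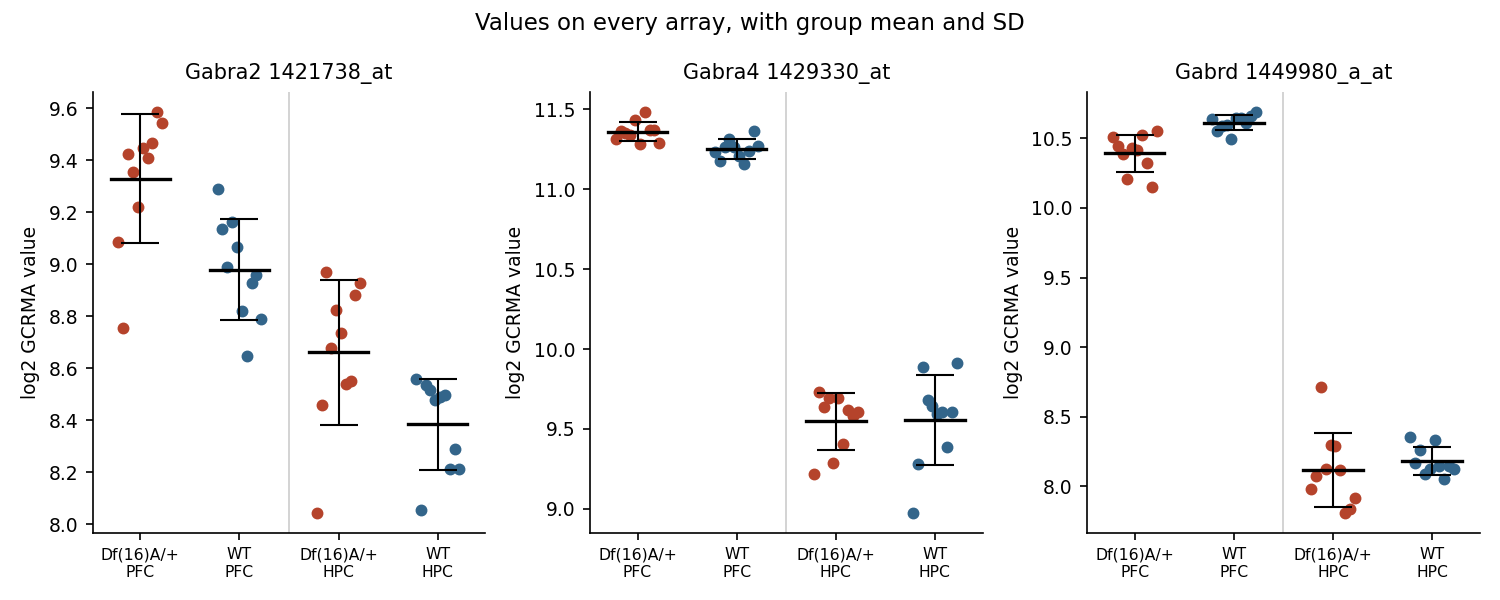
Log2 GCRMA values of the 3 member probe sets called in the PFC, for each of the 10 arrays in Df(16)A/+ PFC, WT PFC, Df(16)A/+ HPC and WT HPC (points), with the group mean (horizontal bar) and SD (error bar). In the PFC, Gabrd had 7 Df(16)A/+ arrays under the lowest WT array, and Gabra2 had 7 above the highest WT array, while in the HPC Gabrd and Gabra4 overlapped widely.

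**Figure D2:**
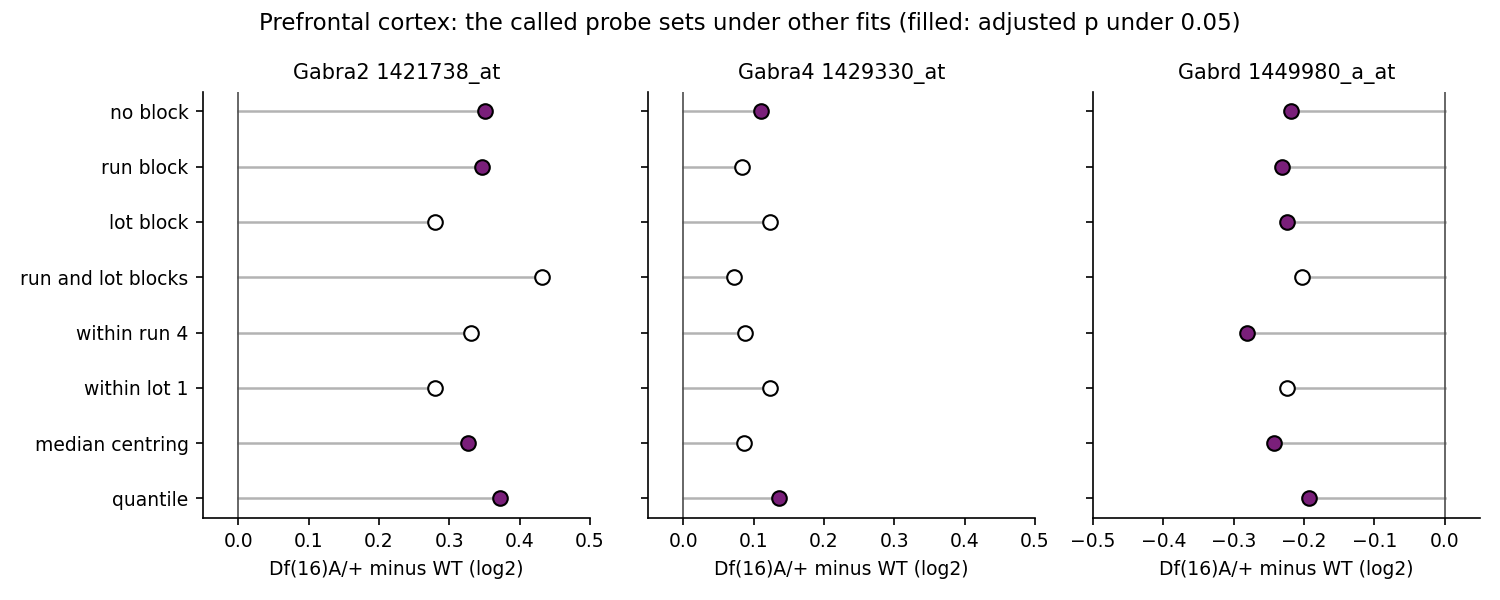
Df(16)A/+ minus WT difference in the PFC (log2, horizontal axis) of the 3 called probe sets under the fit without blocks and 7 other fits (rows), with filled points for an adjusted p under 0.05. The sign was the same in all 8 fits for each probe set, and the call was absent with run and lot blocks together for all 3.

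Among the other α subunits of the PFC, Gabra3 (α3) had differences of 0.22 ± 0.14 SE (1421263_at, adjusted p = 0.286) and 0.11 ± 0.06 SE (1436957_at, adjusted p = 0.211). Probe set 1436957_at ran from 11.56 to 11.79 in Df(16)A/+ PFC and from 11.21 to 11.79 in WT PFC, and 9 of the 10 Df(16)A/+ arrays lay above the WT mean. Gabra5 (α5) had values of 11.09, 11.25 and 11.35 in Df(16)A/+ PFC and of 11.10, 11.28 and 11.34 in WT PFC. Its groups covered nearly the same range, with a difference of -0.02 ± 0.04 SE (95% interval -0.11 to 0.07).

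Of the β subunits, Gabrb1 (β1) had the probe set nearest to the threshold. Probe set 1435095_at had 11.34, 11.44 and 11.67 in Df(16)A/+ PFC, against 11.52, 11.62 and 11.68 in WT PFC, and 6 Df(16)A/+ arrays lay under the lowest WT array. The difference was -0.12 ± 0.04 SE with an adjusted p of 0.0507. It was -0.07 (adjusted p = 0.329) with run as a block, -0.08 (0.441) with lot as a block and -0.02 (0.918) with both, and it was called with the stricter filter, the intensity trend and array weights. The other Gabrb1 probe sets did not share a direction: 1419719_at had -0.04 ± 0.03 SE, 1443205_at -0.00 ± 0.06 SE and 1443834_at, with values near the filter, 0.25 ± 0.11 SE (adjusted p = 0.111). Leaving out Df(16)A/+ PFC replicate 1 or 2 raised the member calls to 5, by adding 1435095_at and 1443834_at, and leaving out Df(16)A/+ PFC replicate 9 or 10 or WT PFC replicate 1 or 2 added 1435095_at alone. Gabrb2 (β2), the most widespread β subunit of the adult brain, had 5 tested probe sets with differences between -0.09 and 0.04. The Gabrb2 difference farthest from 0 was that of 1428203_at, with 12.54, 12.75 and 12.83 in Df(16)A/+ PFC against 12.68, 12.79 and 12.95 in WT PFC (-0.09 ± 0.04 SE, adjusted p = 0.127). Only 1 Df(16)A/+ array lay above the WT mean there, and 4 WT arrays lay above the highest Df(16)A/+ array.

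No member probe set had groups that did not overlap in the PFC, against 0.928% of all probe sets tested. The 95% intervals of the 15 members not called reached down to -0.22 and up to 0.52. Summed over the 7 genes on the linear scale and put back on the log2 scale, with the brightest tested probe set of each gene, the signal ran from 14.68 to 14.76 in Df(16)A/+ PFC and from 14.69 to 14.79 in WT PFC.

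Some cell type markers were called in the same PFC comparison, in which 19.0% of all genes were called, with 1 probe set per gene. Of all probe sets tested there, 5.94% were called higher and 12.5% lower. The excitatory neuron markers had 5 of 8 probe sets and 2 of 4 measured genes higher (Slc17a7, the vesicular glutamate transporter, by 0.32 ± 0.06 SE, and Nrgn, a postsynaptic protein of principal neurons, by 0.23 ± 0.06 SE), and their summed level ran from 15.04 to 15.31 in Df(16)A/+ PFC and from 14.93 to 15.04 in WT PFC. Of 7 interneuron markers, Gad1, a GABA-synthesizing enzyme, was higher (0.11 ± 0.04 SE) and Pvalb, the calcium buffer of fast-spiking interneurons, lower (-0.25 ± 0.08 SE), with a summed level of 14.73 to 14.90 in Df(16)A/+ PFC and 14.68 to 14.77 in WT PFC. Of 6 microglia markers C1qa was lower (-0.29 ± 0.10 SE, summed level 12.61 to 12.96 in Df(16)A/+ PFC and 12.76 to 13.65 in WT PFC), and 2 of 3 measured endothelium markers were lower (the transporter Slco1a4, and Cldn5, which lies in the deleted interval), with a summed level of 8.34 to 9.58 in Df(16)A/+ PFC and 9.29 to 10.07 in WT PFC. Of 5 astrocyte markers Slc1a3, a glutamate transporter, was higher (0.24 ± 0.05 SE, summed level 14.71 to 14.96 in Df(16)A/+ PFC and 14.57 to 14.87 in WT PFC). Ppp1r1b, on the striatum list, was higher by 0.45 ± 0.06 SE, with a summed striatum level of 9.49 to 9.86 in Df(16)A/+ PFC and 9.27 to 9.50 in WT PFC. Of 4 hippocampal pyramidal cell markers Bok was lower (-0.20 ± 0.04 SE), with a summed level of 11.73 to 12.10 in Df(16)A/+ PFC and 11.82 to 11.97 in WT PFC. By probe set, 4 of 17 were higher for astrocytes, 2 of 9 for interneurons, 2 of 9 for thalamus and 1 of 4 for striatum. Lower were 3 of 13 for oligodendrocytes, 2 of 11 for microglia, 2 of 4 for endothelium, 1 of 9 for interneurons and 1 of 4 for hippocampal pyramidal cells. With 1 probe set per gene, no oligodendrocyte or thalamus marker was called. The list medians were 0.16 for excitatory neurons, 0.07 for interneurons, -0.11 for microglia and -0.58 for endothelium. They were 0.13 for astrocytes, 0.04 for striatum and 0.03 for hippocampal pyramidal cells, the last against the direction of Bok. The part of these shifts in the subunit differences was not tested. The beta-actin 3′ minus 5′ difference, a sign of RNA quality, had medians of 1.25 in both PFC groups.

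In the HPC of Df(16)A/+ mice no member probe set passed the test, and differences within a gene ran in both directions for Gabra2, Gabra4 and Gabrb2. Of 17 member probe sets tested, 0 were called by limma, against 6.47% of the 21153 probe sets tested (1369 calls, of which 5.19% of all tested were higher and 1.28% lower). At an unadjusted p under 0.05 there were 6, all of them higher, against 24.4% of all probe sets tested and 15.9% for higher ones. The members' median difference was 0.10, against 0.02 over all probe sets tested. With quantile normalization, all calls split into 958 higher and 551 lower, against 1098 and 271 on the deposited values.

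Gabrb2 had 4 of these 6 probe sets. Probe set 1428204_at had 9.98, 10.63 and 11.04 as lowest, median and highest values in Df(16)A/+ HPC, against 9.87, 10.34 and 10.51 in WT HPC, and 7 Df(16)A/+ arrays lay above the highest WT array. Its difference was 0.27 ± 0.11 SE (95% interval 0.05 to 0.50, adjusted p = 0.129 by limma), or 121% of WT. Probe set 1428205_x_at followed it across arrays (Pearson r = 0.93 over the 40 arrays, each region centred on its mean) with 0.23 ± 0.10 SE, and an x_at probe set can hold probes that match other sequences. Probe set 1450319_at had 6.80, 7.36 and 8.32 in Df(16)A/+ HPC, against 6.90, 7.11 and 7.39 in WT HPC, with 9 Df(16)A/+ arrays above the WT mean. Its difference was 0.36 ± 0.13 SE (adjusted p = 0.0961). Probe set 1428203_at had a difference of 0.11 ± 0.04 SE (adjusted p = 0.136), while 1429685_at had -0.03 ± 0.04 SE. The tested β2 probe sets differed in the sign of the difference, and r between 1429685_at and 1450319_at was -0.18.

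In Df(16)A/+ HPC, the arrays of run 3 averaged above those of run 2 at every Gabrb2 probe set. The ranges of these runs overlapped for 1429685_at and 1450319_at. The cause was not tested. For 1428204_at, the 2 Df(16)A/+ arrays of run 2 averaged 10.09 and the 8 Df(16)A/+ arrays of run 3 averaged 10.70, against 10.30 in the 9 WT arrays of run 2. Within run 2 the difference was -0.21 (adjusted p = 0.702) for 1428204_at, -0.20 (0.627) for 1428205_x_at, -0.01 (0.983) for 1428203_at and 0.16 (0.708) for 1450319_at. Run 3 holds no WT array of the HPC, so run and genotype cannot be told apart there. Within chip lot 1 the differences were 0.15 for 1428204_at, 0.11 for 1428205_x_at, 0.08 for 1428203_at and 0.21 for 1450319_at, none called. Without Df(16)A/+ HPC replicate 1, an array of run 2, Gabra2 1421738_at (0.35, adjusted p = 0.0109), Gabrb2 1428204_at (0.34, adjusted p = 0.0288) and Gabrb2 1428205_x_at (0.29, adjusted p = 0.028) were called. Without Df(16)A/+ HPC replicate 6, Gabrb2 1450319_at was called (0.44, adjusted p = 0.0358).

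**Figure D3:**
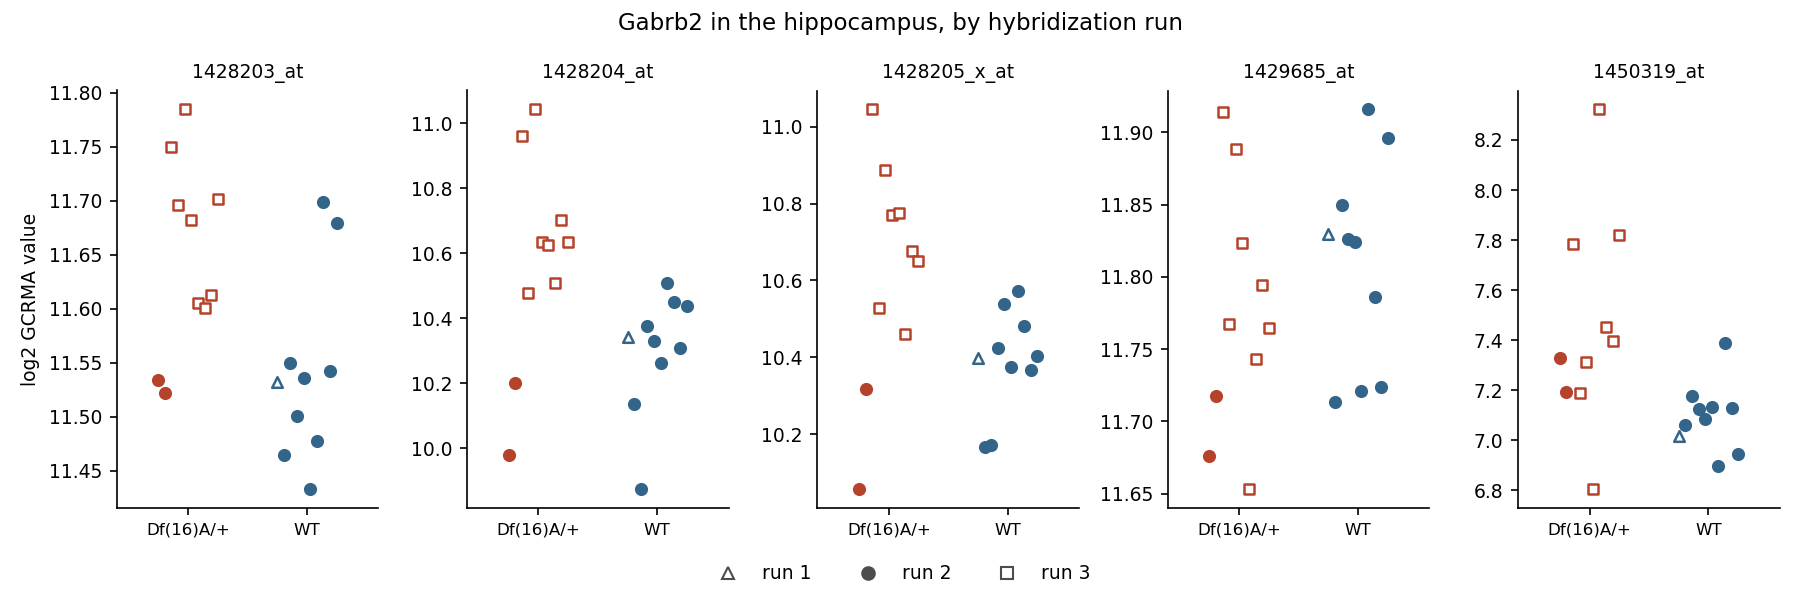
Log2 GCRMA values of the 5 Gabrb2 probe sets on each HPC array, Df(16)A/+ left and WT right, with the marker giving the hybridization run (triangle run 1, filled circle run 2, open square run 3). For 1428204_at the 8 Df(16)A/+ arrays of run 3 averaged 10.70, and the 2 of run 2 averaged 10.09, beside 10.30 in the WT arrays of run 2.

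Gabra2 1421738_at had 8.04, 8.71 and 8.97 in Df(16)A/+ HPC, against 8.06, 8.48 and 8.56 in WT HPC, with 6 Df(16)A/+ arrays above the highest WT array and 1 under the lowest. The difference was 0.28 ± 0.10 SE (adjusted p = 0.093). It was called with array weights (adjusted p = 0.0446), while within run 2 it was -0.14 (adjusted p = 0.837). Gabra3 1436957_at had a difference of 0.19 ± 0.08 SE (adjusted p = 0.183), with 9 Df(16)A/+ arrays above the WT mean. The other Gabra3 probe set, 1421263_at, exceeded 4 on 5 of the 20 arrays and was not tested, with 2.95, 3.95 and 4.75 in Df(16)A/+ HPC and 2.93, 3.26 and 3.92 in WT HPC.

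Gabra4 had differences of -0.01 ± 0.10 SE (1429330_at) and 0.02 ± 0.06 SE (1433707_at) in the HPC. Gabra5 had 12.24, 12.32 and 12.69 in Df(16)A/+ HPC, against 12.30, 12.51 and 12.59 in WT HPC. Of its Df(16)A/+ arrays 5 lay under the lowest WT array and 1 above the highest, and the difference of -0.09 ± 0.06 SE was not called (95% interval -0.21 to 0.03, adjusted p = 0.356). The 4 Gabrb1 probe sets had differences between 0.00 and 0.18, with adjusted p from 0.251 to 0.985. Gabrd 1449980_a_at had 7.81, 8.09 and 8.71 in Df(16)A/+ HPC, against 8.06, 8.15 and 8.36 in WT HPC. Its 4 lowest and 1 highest Df(16)A/+ arrays lay outside the WT range, and the difference was -0.06 ± 0.09 SE (95% interval -0.25 to 0.12, adjusted p = 0.679). No member had groups that did not overlap, against 0.260% of all probe sets tested, and the intervals of the 17 members reached down to -0.25 and up to 0.64. The summed signal of the 7 genes ran from 13.97 to 14.15 in Df(16)A/+ HPC and from 13.97 to 14.14 in WT HPC.

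**Figure D4:**
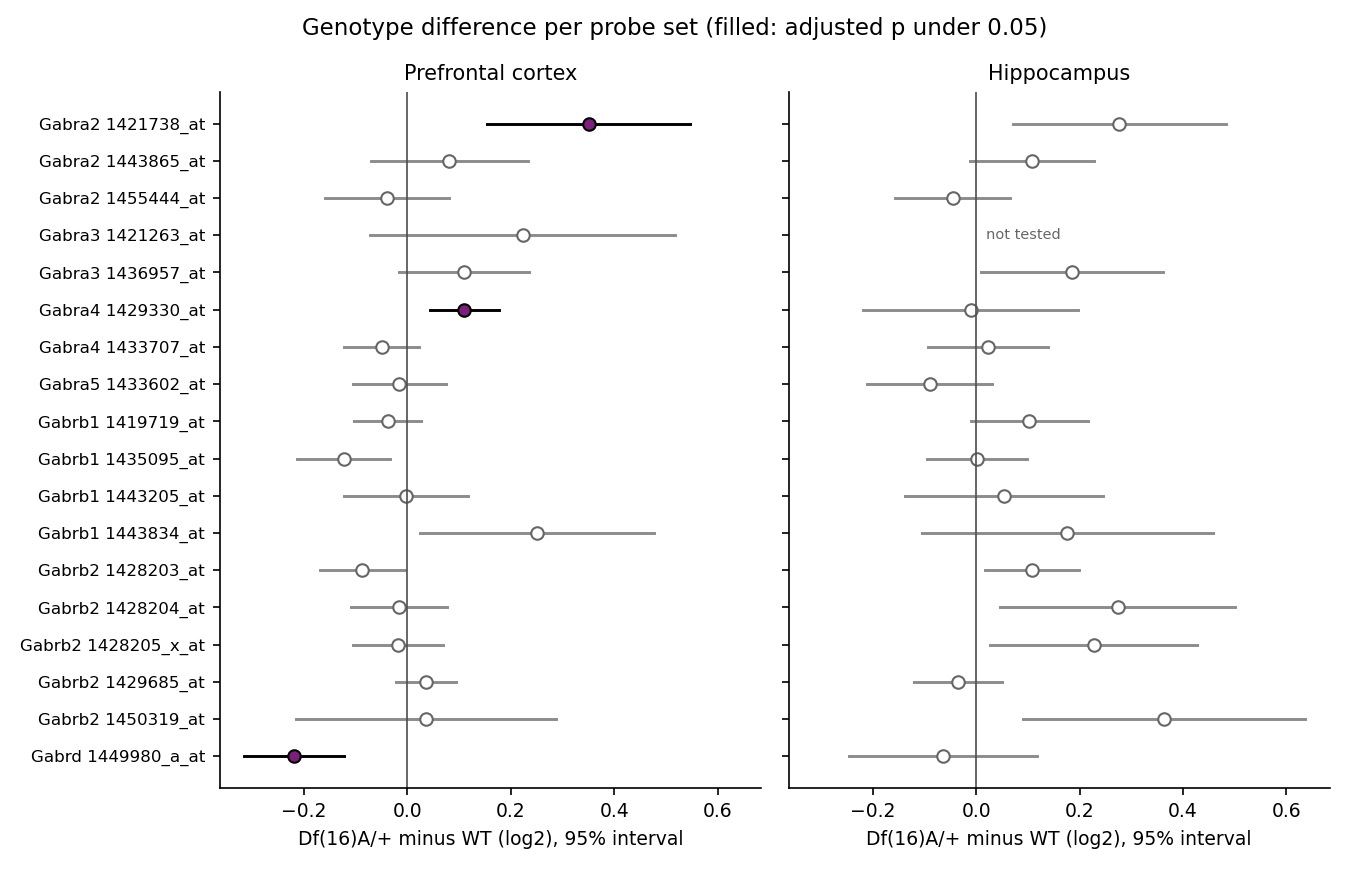
Df(16)A/+ minus WT difference (log2) with its 95% interval for each tested member probe set in the PFC (left) and HPC (right), with filled points for an adjusted p under 0.05. Filled points are Gabra2 1421738_at, Gabra4 1429330_at and Gabrd 1449980_a_at in the PFC, and there are none in the HPC.

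Some cell type markers were also called in the HPC, where 3.66% of all genes were called, with 1 probe set per gene. Of 4 measured excitatory neuron markers Slc17a7 was higher (0.38 ± 0.06 SE), with a list median of 0.25. Of 4 dentate granule cell markers Prox1, a transcription factor, was higher (0.27 ± 0.07 SE), with a list median of 0.01. Of 6 microglia markers C1qb was lower (-0.43 ± 0.12 SE), with a list median of -0.01. The summed level ran from 14.16 to 14.66 in Df(16)A/+ HPC and from 14.12 to 14.33 in WT HPC for excitatory neurons, and from 13.85 to 14.14 in Df(16)A/+ HPC and 13.90 to 14.10 in WT HPC for interneurons. Of 3 measured endothelium markers, with a median of -0.14, 1 was called lower, Cldn5 of the deleted interval. Microglia markers summed to 11.66 to 11.89 in Df(16)A/+ HPC and 11.65 to 12.57 in WT HPC, and those of dentate granule cells to 11.82 to 12.23 in Df(16)A/+ HPC and 11.87 to 12.24 in WT HPC. Choroid plexus markers, of which 0 of 4 genes were called by limma, spread from 12.34 to 15.51 in Df(16)A/+ HPC and from 11.85 to 15.47 in WT HPC. The beta-actin 3′ minus 5′ difference ran from 1.16 over a median of 1.27 to 1.38 in Df(16)A/+ HPC and from 1.18 over 1.31 to 1.65 in WT HPC. With it as a covariate, all calls in the HPC numbered 633 and no member was called by limma. The part of the marker shifts in the member values was not tested.

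Whether the genotype effect differed between regions was tested as the HPC effect minus the PFC effect over the 40 arrays. Of 18 member probe sets, 0 were called by limma, against 2.53% of 22586 probe sets tested (572 calls, with 2.25% of all tested higher and 0.279% lower). At an unadjusted p under 0.05 there were 5, all with the HPC effect above the PFC effect, against 20.8% of all and 15.5% in that direction. Gabrb2 1428203_at came nearest, with an effect of 0.11 in the HPC and -0.09 in the PFC, a difference between them of 0.19 ± 0.06 SE and an adjusted p of 0.0534. It was called with the stricter filter, an intensity trend, array weights or the replicate number as a random block, and not with run as a block (0.09, adjusted p = 0.811). Without Df(16)A/+ HPC replicate 1, 3 Gabrb2 probe sets were called, and without any of 7 other arrays 1428203_at alone was (Df(16)A/+ HPC replicates 2 and 8, Df(16)A/+ PFC replicate 10, WT HPC replicates 7 and 10, WT PFC replicates 3 and 7). For Gabrd the HPC effect minus the PFC effect was 0.15 ± 0.10 SE (adjusted p = 0.376), for Gabra2 1421738_at -0.07 ± 0.14 SE (0.79) and for Gabra4 1429330_at -0.12 ± 0.11 SE (0.524). The calls made in the PFC and absent in the HPC are therefore not shown to differ between the regions.

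Levels in the regions are set side by side for WT mice, with no test, since the upper parts of the regions' distributions lie apart. Gabra5 averaged 12.49 ± 0.09 in WT HPC and 11.24 ± 0.08 in WT PFC (SD, n = 10 each), with a difference of 1.25 on the deposited values and 1.91 after quantile normalization over all 40 arrays. Gabrd averaged 8.18 ± 0.10 in WT HPC and 10.61 ± 0.06 in WT PFC, a difference of -2.43 deposited and -1.81 after quantile normalization. Gabra3 1436957_at averaged 9.19 ± 0.14 in WT HPC and 11.57 ± 0.18 in WT PFC, and 1421263_at 3.28 ± 0.32 in WT HPC and 7.80 ± 0.36 in WT PFC. Both Gabra4 and all 5 Gabrb2 probe sets were lower in WT HPC as well, with deposited differences of -1.69 and -1.14 for those of Gabra4 and of -1.59 to -1.21 for those of Gabrb2. After quantile normalization these were -1.03 and -0.47 for Gabra4 and -0.92 to -0.54 for Gabrb2. The sign turned with the scaling for Gabrb1 1419719_at (-0.33 deposited, 0.35 after quantile normalization), 1435095_at (-0.30 and 0.38) and 1443834_at (-0.00 and 0.29), and for Gabra2 1421738_at (-0.59 and 0.01) and 1455444_at (-0.07 and 0.57).

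Of the other GABA-A subunits, 14 probe sets of 8 genes were on the list used here. In the PFC 5 of them were tested and 0 called by limma: Gabrg1 (γ1) had 0.12 ± 0.12 SE and -0.01 ± 0.04 SE, Gabrg3 (γ3) 0.05 ± 0.04 SE and -0.11 ± 0.09 SE, and Gabrp (π) -0.01 ± 0.03 SE. In the HPC 3 were tested and 0 called by limma. Gabrg1 1427227_at had 0.23 ± 0.10 SE (adjusted p = 0.18), the brighter Gabrg1 1460408_at 0.01 ± 0.08 SE and Gabrg3 1439717_at -0.01 ± 0.04 SE. Gabra6, Gabre, Gabrq, Gabrr1 and Gabrr2 lay under the filter in both regions.

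Proteins that anchor, assemble and move these receptors, or set the chloride gradient they use, were followed as a list of 26 genes, with the brightest tested probe set of each. In the PFC 2 of 23 measured genes were higher and 0 lower by limma, against 19.0% of all genes called. Over all 40 tested partner probe sets, 8 were higher and 1 lower by limma. Of all probe sets tested, 5.94% were called higher and 12.5% lower. The 2 genes were Hap1, a trafficking adaptor of GABA-A receptors, by 0.23 ± 0.06 SE (adjusted p = 0.0126), and Shisa7, a transmembrane protein of GABA-A receptors, by 0.21 ± 0.06 SE (adjusted p = 0.0193). Both were called with run or lot as a block, and neither with both (adjusted p = 0.105 for Hap1 and 0.15 for Shisa7). Next in p were Lhfpl4, which holds receptors at inhibitory synapses (-0.09 ± 0.04 SE, adjusted p = 0.136), and Gabarapl2, a relative of the GABA-A receptor-associated protein (-0.11 ± 0.05 SE, adjusted p = 0.141). The median difference of the list was -0.04, as over all genes.

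In the HPC 0 of 24 measured partner genes were higher and 1 lower by limma, against 3.66% of all genes called. It was Rdx (radixin, which anchors α5 receptors to the cytoskeleton), at -0.37 ± 0.10 SE (1416179_a_at, adjusted p = 0.0363). Another Rdx probe set, 1416180_a_at, had 0.28 ± 0.09 SE in the HPC (adjusted p = 0.0739), and 1448236_at was not called in either region. Over all 42 tested partner probe sets, 4 were higher and 2 lower by limma, against 5.19% higher and 1.28% lower of all probe sets tested. With run as a block the Rdx difference was 0.06 (adjusted p = 1), with lot as a block -0.21 (0.236), and 12 of the 20 fits that each left out 1 array lost the call. Zdhhc3, a palmitoylating enzyme, had -0.10 ± 0.04 SE, Gabarapl2 0.11 ± 0.05 SE and Nlgn2, an adhesion protein of inhibitory synapses, 0.15 ± 0.07 SE, with adjusted p between 0.149 and 0.222. The median difference was 0.04 over the list and 0.00 over all genes.

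The genes whose values ran most alike with each member over the 40 arrays, after each region was centred on its mean, are given as a description. Each member was represented by its probe set with the highest mean among those tested in both regions. For Gabra2 and Gabra4 these were 1455444_at and 1433707_at, not the probe sets called in the PFC. Their r with the called probe sets was -0.15 for Gabra2 and 0.27 for Gabra4. The points share arrays, runs and lots, and differences between the genotypes were left in the values. Gabrd ran most like Rabep2 (Pearson r = 0.85) and Mdh2, a mitochondrial malate dehydrogenase (0.84), Gabrb1 like Ap3b1 (0.88) and Glg1 (0.86), and Gabra3 like Gabbr1, a subunit of the metabotropic GABA-B receptor (0.77), and Ap2b1, an adaptor of clathrin-mediated endocytosis (0.77). Gabra5 ran like Vldlr (0.74) and Mex3c (0.74), Gabrb2 like Srpk2 (0.74) and Kmt2e (0.67), Gabra4 like Vamp7 (0.68) and Rwdd4a (0.67), and Gabra2 like Nhsl1 (0.61) and Ipo4 (0.58). These genes were picked as the 2 with the highest r, so their r cannot be weighed against that of fixed pairs. Within 1 region, their r lay between 0.36 (Gabra4 and Rwdd4a) and 0.90 (Gabrd and Mdh2) in the PFC. In the HPC it lay between 0.65 (Gabra2 and Nhsl1) and 0.92 (Gabrb1 and Glg1). Between probe sets of 1 gene, r lay between -0.15 and 0.48 for the 3 of Gabra2 and was 0.27 for the 2 of Gabra4. It lay between -0.45 and 0.29 for the 4 of Gabrb1 and between -0.18 and 0.93 for those of Gabrb2.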

How the data were processed

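Total RNA from 40 tissue samples was hybridized to 1 Affymetrix Mouse430_2 array each. The authors deposited log2 values, and the submitters' processing notes name GCRMA. Its version, and which arrays it normalized as a set, were not stated in any source read. The text record deposited with each array gave hybridization runs 1 to 5 and chip lots 1 to 5, and 2 arrays had no scan record. No columns of per-sample values were left unused, so that number is 0.

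Of 45101 probe sets, 64 controls were left out. The annotation supplied for the array gives 1 gene for 34945 of the rest, several for 932 and none for 9160. No genome build was named for it. A probe set was tested where 10 or more arrays of the comparison exceeded 4 on the log2 scale. Groups come from the sample titles. Each comparison was fitted over all tested probe sets with limma 3.58.1 in R 4.3.3 (lmFit and eBayes, two-sided, 10 against 10 arrays), and p was adjusted by Benjamini-Hochberg. The interaction used all 4 groups. The fit was tested on simulated data. The number of arrays limits the precision. No 2 arrays held identical values. Promoter windows came from RefSeq (GRCm38.p6).

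The members, gene lists and tests were chosen with earlier results of these data known. Text names every member probe set, other subunits with a tested probe set, called partner genes and the 4 with the smallest p per region, called cell type markers, and the 2 genes most alike per member. The fits were repeated with replicate, run and lot blocks, with array weights, with an intensity trend and robust variance, after quantile normalization or median centring, with a stricter filter (above 6) or none, with the actin ratio as a covariate, single runs and lots, a 1.2-fold threshold and leaving out each array (random blocks used statmod 1.5.0). Some other subunit genes are not reported here.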

Additional observations from a re-analysis of the deposited data

Results flagged for a closer look

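Of 70 group checks on member values (10 arrays each), 3 had an array whose gap to the nearest other array was large for the group's range, and chance alone gives about 1 in 20. Gabra3 1421263_at had a value of 8.75178 in Df(16)A/+ PFC replicate 6, the highest of its group, whose median was 8.00. Gabrb1 1443834_at had a value of 5.25752 in WT HPC replicate 1, the highest of its group, whose median was 4.78. Gabrb2 1429685_at had a value of 12.9121 in WT PFC replicate 8, the lowest of its group, whose median was 13.03. None of the 3 probe sets was called in that region.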

How the results depend on the processing

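The 3 member calls of the PFC were kept in each of the 20 fits without 1 array, where member calls ran from 3 to 5, all calls from 3244 to 4704 and partner calls from 2 to 3. Member calls in the PFC were 1 with chip lot as a block, 0 with run and lot as blocks, 1 within run 4, 0 within lot 1 and 1 with a 1.2-fold threshold. All calls in the PFC were 2003 with run, 986 with lot and 455 with both as blocks, 512 within run 4, 329 within lot 1 and 1371 with the 1.2-fold threshold. Partner calls there were 0 with both blocks, within run 4, within lot 1 and with the 1.2-fold threshold, and 4 with the mean over the probe sets of a gene. In the HPC, member calls were 1 with array weights and ran from 0 to 3 without 1 array. All HPC calls were 812 without a filter, 2335 with array weights, 33 with run, 436 with lot and 38 with both as blocks, 633 with the actin covariate, 31 within run 2 and 397 within lot 1, and ran from 789 (without WT HPC replicate 2) to 2323 (without Df(16)A/+ HPC replicate 2). They were 2186 without Df(16)A/+ HPC replicate 1, and 792 to 912 without Df(16)A/+ HPC replicates 3, 9 and 10 or WT HPC replicates 4, 5 and 10. Partner calls there were 0 without a filter, with median centring, run, lot or both blocks, the actin covariate, within run 2 and within lot 1, 2 with the mean over probe sets, and 0 to 1 without 1 array. For the interaction, member calls were 1 with the filter above 6, the intensity trend, array weights and the replicate number as a random block across regions, and 0 to 3 without 1 array. All interaction calls were 298 without a filter, 194 with quantile normalization, 1053 with median centring, 1161 with array weights, 15 with run, 1 with lot and 21 with both as blocks, 176 with the actin covariate and 378 with the 1.2-fold threshold, and ran from 182 (without Df(16)A/+ PFC replicate 4) to 1286 (without Df(16)A/+ HPC replicate 1). They were also 1141 and 954 without Df(16)A/+ HPC replicates 2 and 8, and 208 to 365 without Df(16)A/+ PFC replicates 5, 7 and 9, Df(16)A/+ HPC replicates 3 and 5, WT PFC replicates 4, 6, 8, 9 and 10 or WT HPC replicates 2, 4, 5 and 10. The cause of these changes was not tested, and the fits within 1 run or lot also had fewer arrays. Other splits of all calls into higher and lower were 1028 and 25 with median centring for the interaction, 141 and 53 with quantile normalization for the interaction, and 1232 and 81 with median centring in the HPC. Low signal left Gabra2 1420299_at and 1449807_x_at and Gabrd 1457763_at without a test in either region, and Gabra3 1421263_at without one in the HPC.

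With the replicate number as a block, member calls were 1 in the PFC (Gabrd) and 2 in the HPC (Gabrb2 1428204_at and 1450319_at), and partner calls were 0 in the HPC. The numbers showed no clear pairing of the samples. The correlation of deviations was over 0.1 in 2 of 10 same-numbered pairs in the PFC and 4 of 10 in the HPC. It was over 0.1 in 5 of 10 between the Df(16)A/+ HPC and PFC and 4 of 10 between the WT HPC and PFC. In each, 1 sample of 10 correlated best with its own number. The deviations still hold run and lot differences, so this check cannot exclude pairing. The labels do not say that same-numbered samples of the regions share an animal, and the random block's consensus correlation was 0.0232.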

Other observations

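Probe sets of the same partner gene also gave different calls. Slc12a5, the potassium-chloride exporter that keeps GABA inhibitory, was higher at probe set 1425337_at by 0.64 ± 0.19 SE in the PFC (adjusted p = 0.0208 by limma) and by 0.57 ± 0.11 SE in the HPC (adjusted p = 0.0047), while 1451674_at, its probe set with the highest mean, had -0.01 ± 0.03 SE in the PFC and 0.08 ± 0.06 SE in the HPC. Kif5a, a kinesin that carries GABA-A receptors, was higher at 1450249_s_at by 0.67 ± 0.14 SE in the PFC (adjusted p = 0.00294) and by 0.60 ± 0.13 SE in the HPC (adjusted p = 0.00828), and had 0.02 ± 0.03 SE in the PFC and 0.08 ± 0.06 SE in the HPC at 1434670_at, its probe set with the highest mean. Gphn, the gephyrin scaffold of inhibitory synapses, was lower in the PFC at 1430038_at (-0.23 ± 0.08 SE, adjusted p = 0.0398) and higher in the HPC at 1426463_at (0.27 ± 0.05 SE, adjusted p = 0.00439), with -0.08 ± 0.04 SE in the PFC and 0.04 ± 0.05 SE in the HPC at 1426462_at, its probe set with the highest mean. With run as a block the HPC differences were 0.32 for Slc12a5 1425337_at, 0.23 for Kif5a 1450249_s_at and 0.17 for Gphn 1426463_at, none called. With lot as a block they were 0.58, 0.60 and 0.24, all called by limma (adjusted p = 0.0275, 0.0369 and 0.0219). With run and lot together none was called in the HPC. With run as a block the PFC differences were 0.51 for Kif5a 1450249_s_at (adjusted p = 0.0422), 0.45 for Slc12a5 1425337_at (0.184) and -0.25 for Gphn 1430038_at (0.095), and with run and lot together none of the 3 was called (adjusted p = 0.287 for Kif5a, 0.315 for Slc12a5 and 0.721 for Gphn). With lot alone as a block, Kif5a was called in the PFC by limma (0.74, adjusted p = 0.0307), and Slc12a5 (0.0799) and Gphn (0.265) were not.

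The other called partner probe sets in the PFC that do not stand for their gene were all higher: Slc12a2 1417623_at (a chloride importer) by 0.68 (adjusted p = 0.00725 by limma), Rdx 1416180_a_at by 0.54 (0.0122), Zdhhc3 1423647_a_at by 0.28 (0.0132) and Nsf 1422455_s_at (a membrane fusion ATPase) by 0.16 (0.036). In the HPC, Nsf 1422455_s_at was higher by 0.32 (0.0161) and Gabarapl2 1441376_at was lower (-0.17, 0.034). None of these 6 was called with run as a block.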
